A study of Solanum lycopersicum with 24 samples.

Results

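Polysomes were compared with monosomes in tomato leaf libraries labelled Hardening: 2 polysome libraries against 2 monosome libraries, 4 of the 24 libraries in the deposited table. They were chosen by their labels for condition and fraction. The study compared leaves of Solanum lycopersicum, selection line YaLF, under 4 temperature conditions and in 3 RNA fractions (polysomes, monosomes and total RNA), with 2 libraries for each combination. Plants of 28 days, grown at 25 °C, were hardened for 5 days at 6 °C (Hardening), exposed to 0 °C for 2 h without hardening (Stress), exposed to 0 °C for 2 h after hardening (Combo), or left untreated (Control). The 6 °C is that of the labels, and the methods of the study give a lower hardening temperature. All plants were of the same line, and RNA was enriched for poly(A) tails before stranded library preparation. In the study's methods the 2 libraries of a group are technical repetitions, whereas the column headers call them biological replicates, so the p-values below measure only the spread between those libraries.

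A messenger RNA under active translation carries several ribosomes and sediments deep in a sucrose gradient as a polysome, while an mRNA with a single ribosome sediments as a monosome. The share of an mRNA found in polysomes rather than monosomes is used as a measure of its engagement in translation. In plants, cold is known to lower translation broadly and to act through CBF transcription factors, which switch on protective proteins such as dehydrins and LEA proteins. A comparison of the fractions within a label gives relative levels only, because each library is scaled to a fixed sum.

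The temperature that these 4 libraries stand for was examined first, against total RNA, and it went against the label. LE25, a late embryogenesis abundant protein that accumulates on drying and cold, had 3.92 and 2.43 TPM (transcript abundance corrected for length and scaled to a fixed library sum) in the Hardening-labelled polysomes and 15.3 and 10.8 TPM in the Hardening-labelled monosomes. In total RNA it had 1003 and 861 TPM in Hardening leaves, against 1.54 and 2.66 TPM in Control leaves. AKR4B, an aldo-keto reductase, had 4.80 and 5.10 TPM in the polysomes and 7.12 and 7.94 TPM in the monosomes, where total RNA of Hardening leaves had 1869 and 1812 TPM. Both transcripts were therefore far below the level of hardened leaves in both fractions. Cab-1D, a chlorophyll a/b-binding protein of the light-harvesting antenna, showed the reverse, with 6677 and 6673 TPM in the polysomes and 7960 and 4552 TPM in the monosomes, against only 18.0 and 17.3 TPM in total RNA of Hardening leaves.

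The same was seen over many transcripts. A sustained-cold index was taken as the mean log2 level of the 3175 transcripts higher, minus that of the 3588 transcripts lower, in Hardening than in Control total RNA (21984 tested with limma). The index was -1.24 and -1.26 in the Hardening-labelled polysomes and -0.95 and -0.97 in the Hardening-labelled monosomes. In total RNA it was 2.12 and 2.13 for Hardening, 2.23 and 2.23 for Combo, -1.05 and -1.08 for Stress and -1.18 and -1.24 for Control. The polysome and monosome libraries labelled Stress, in contrast, lay between 1.85 and 2.05. The Hardening-labelled libraries thus lay with the unhardened leaves and the Stress-labelled libraries with the hardened ones. The temperature of the 4 libraries is not established by these data, and "Hardening" is used below only as the label they carry.

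A second index was built from the acute response in total RNA, where 483 transcripts were higher (2.2% of those tested) and 438 lower (1.99%) in Stress than in Control. This acute-cold index was 0.42 and 0.43 in the Hardening-labelled polysomes, against -1.20 and -0.97 in the Hardening-labelled monosomes. In total RNA it was 1.62 and 1.67 for Stress and -1.25 and -1.12 for Control. The Hardening-labelled monosomes lay close to untreated leaves and the polysomes between untreated and stressed leaves. The libraries labelled Control were split in the same way, with 0.38 and 0.41 in polysomes and -1.39 and -1.31 in monosomes. A difference between fractions and a difference in exposure to 0 °C cannot be told apart for transcripts of this response, so the change in Stress total RNA is given beside the leading transcripts. Per the study's methods, sampling of leaves exposed to 0 °C followed that of Control leaves by the 2 h of exposure, so exposure and time of day cannot be told apart in that change either.

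**Figure D1:**
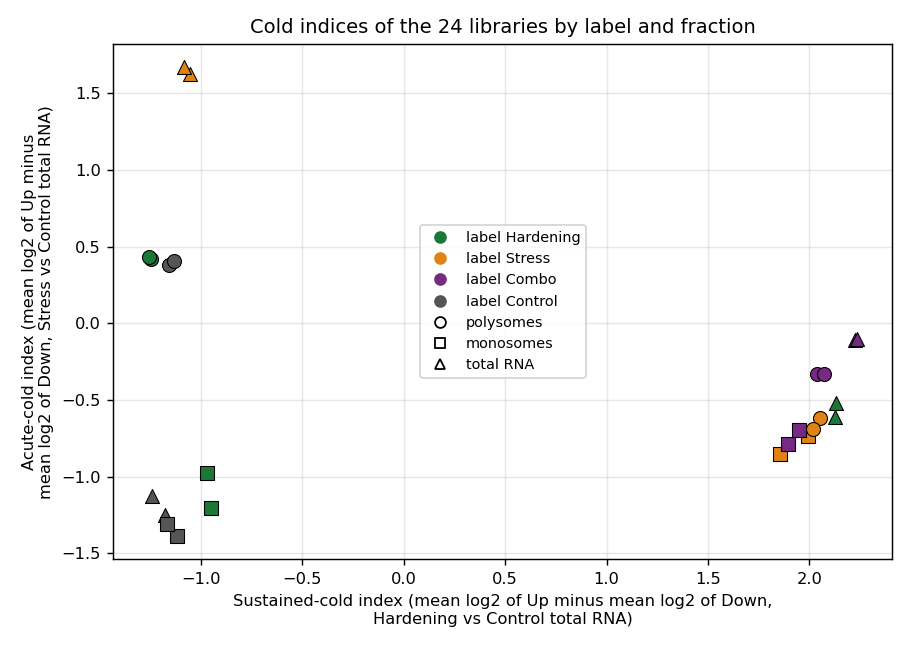
Sustained-cold index (horizontal axis) and acute-cold index (vertical axis), both in log2 units, of all 24 libraries, with 1 point per library, colour for the label and shape for the fraction. The Hardening-labelled polysomes (-1.24 and -1.26) and monosomes (-0.95 and -0.97) sit on the side of unhardened total RNA, far from Hardening total RNA (2.12 and 2.13).

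Leaf markers were high in the 4 libraries. The summed level of 16 markers of leaf mesophyll was 156320 and 157956 TPM in polysomes, against 182549 and 128716 TPM in monosomes, while 3 pollen markers summed to at most 1.03 TPM and 2 fruit markers to at most 0.0135 TPM in any library. In such bulk samples, fewer cells of a type and less RNA per cell cannot be told apart. The libraries of a group correlated at 0.980 for polysomes and 0.945 for monosomes over the tested transcripts, within the range of 0.881 to 0.980 over the 8 polysome and monosome groups. The number of transcripts at 1 TPM or more was 17604 and 17829 in polysomes and 15117 and 15831 in monosomes. The 10 most abundant transcripts took 18.4% and 17.7% of all TPM in polysomes, against 29.8% and 38.2% in monosomes. Since a large share for a few transcripts lowers all others, libraries were rescaled by a trimmed mean of log ratios before testing, with factors of 1.07 and 1.11 for polysomes and 0.75 and 0.80 for monosomes. Levels are given in TPM as deposited and log2 changes after rescaling, so a transcript with equal TPM in both fractions has a negative log2 change. One monosome library stood apart in ribosomal RNA, as described with the non-coding transcripts.

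The polysomes were richer in mRNAs of water and ion transport, cell wall loosening and part of the defence proteins. The monosomes were richer in several ribosomal protein mRNAs, dehydrins and chaperones of the Hsc70 family. Of 17636 transcripts tested, 1239 were Up (7.03%) and 648 were Down (3.67%) in Hardening-labelled polysomes relative to monosomes, with a median log2 change of 0.04 over all transcripts. Up and Down required a Benjamini-Hochberg adjusted p under 0.05 in limma and a log2 change above 1 or below -1. Up calls made 65.7% of all calls. With TPM as deposited and no further scaling, the median of all transcripts was 0.42, the counts were 2805 Up and 222 Down, and 92.7% of calls were Up. Without abundant and non-coding transcripts the counts were 1004 Up and 824 Down (54.9% Up), so the balance of directions rests on the scaling.

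**Figure D2:**
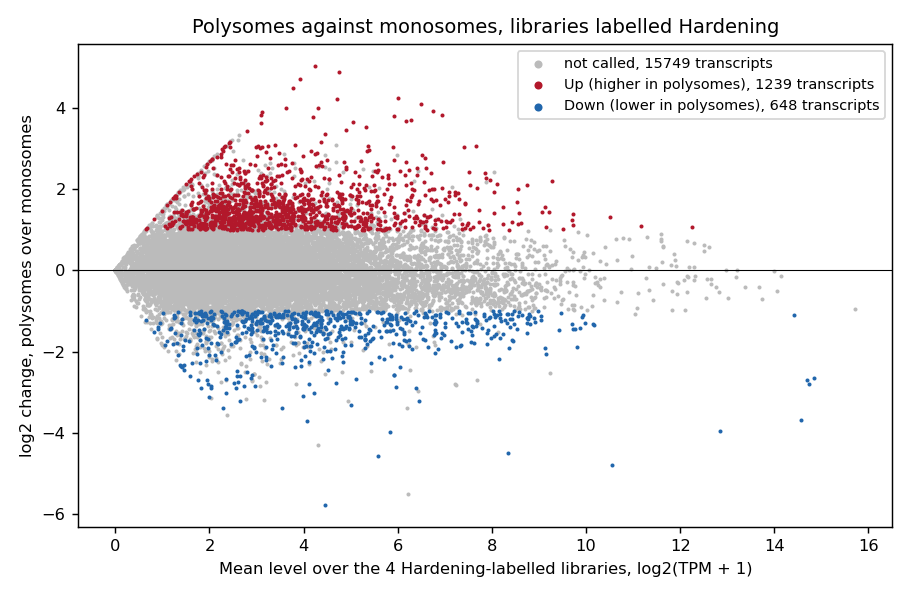
The log2 change of polysomes over monosomes (vertical axis) against the mean level over the 4 Hardening-labelled libraries on a log2(TPM + 1) axis, with 1 point for each of the 17636 transcripts tested. The 1239 Up transcripts lie above 1 and the 648 Down transcripts below -1, and several of the most abundant transcripts are among the Down.

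The calls overlapped with the acute response of total RNA. Of 1238 Up transcripts tested in both tables, 140 (11.3%) were also higher in Stress than in Control total RNA, where 1.86% of all transcripts were. Of 633 Down transcripts, 101 (16.0%) were also lower in Stress total RNA, against 2.23% of all. The Up transcripts also held many that were lower in Hardening than in Control total RNA, with 439 of 1238 (35.5%) against 17.6% of all. Over 17298 transcripts the change between fractions and the Stress change in total RNA correlated at 0.33, a description across transcripts that are not independent. The fractions labelled Control gave 0.28 in the same comparison, those labelled Stress 0.003 and those labelled Combo 0.15. Among 9668 transcripts that changed in no total RNA comparison with Control, 494 (5.11%) were Up and 278 (2.88%) were Down.

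Transcripts for transport across membranes were weighted to polysomes. Of 26 transcripts for aquaporins and transporters, 14 were Up and 0 Down, all 26 had a log2 change above 0, and the median was 1.14 against 0.04 for all transcripts. In limma at an unadjusted p under 0.05, 22 of them were higher and 0 lower. Over all 17636 transcripts tested, 7.03% were Up and 3.67% Down, and 5034 had an unadjusted p under 0.05. The counts in each list below are to be read beside these. AMT1-3 (NM_001247287.1), an ammonium transporter, had 35.6 and 38.7 TPM in polysomes, against 2.31 and 2.22 TPM in monosomes. The fractions were well separated, with a log2 change of 3.16 ± 0.48 (SE; limma, adjusted p = 0.00207). AMT1-2 (NM_001247324.2), a second ammonium transporter, had 15.2 and 15.9 TPM in polysomes, against 0.773 and 0.815 TPM in monosomes (log2 change 2.91 ± 0.26, SE; limma, adjusted p = 0.000143).

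PIP2-9 (NM_001246917.2), a water channel of the plasma membrane, had 130 and 126 TPM in polysomes and 15.8 and 11.9 TPM in monosomes. Its log2 change was 2.66 ± 0.27 (SE; limma, adjusted p = 0.000299). The most abundant aquaporin of the list, PIP1-5, had 1111 and 1047 TPM in polysomes, against 170 and 159 TPM in monosomes, and was Up by 2.21. Other plasma membrane aquaporins (PIP2-7, PIP1-3 and PIP1-7, Up by 1.22 to 2.44) and aquaporins of the vacuolar membrane (TIP and TIP2-2, Up by 1.72 and 1.66) moved with them. The proton pumps LHA4 and LHA1, which energise the plasma membrane, were Up by 1.59 and 1.07. The hexose transporters HT1 and STP12 were Up by 1.67 and 1.20, and the sodium-proton exchanger NHX2 by 1.03.

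In total RNA, 4 of the 14 Up transcripts were also higher in Stress than in Control, and 5 of the 14 changed by less than 0.5 on the log2 scale, among them LHA1 at -0.16 and NHX2 at -0.14. AMT1-3 changed by 0.46 and PIP2-9 by 1.07 there. The median of the whole list in that comparison was 0.38. The list had 10 to 11 Up transcripts when any 1 of the 4 libraries was left out.

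Enzymes that remodel the cell wall were also weighted to polysomes. Of 30 such transcripts on the list, 16 were Up and 0 Down, 27 lay above 0 and 3 below, and the median log2 change was 1.30. At an unadjusted p under 0.05 in limma, 20 were higher and 1 lower. XTH7 (NM_001247546.2), a xyloglucan endotransglucosylase that cuts and rejoins the tethers between cellulose fibrils, had 71.7 and 78.6 TPM in polysomes, against 4.94 and 6.48 TPM in monosomes (log2 change 3.07 ± 0.67, SE; limma, adjusted p = 0.0117). This call was lost without polysome library 1 (3.11), polysome library 2 (3.04) or monosome library 1 (2.94), and XTH7 changed by 1.32 in Stress total RNA. The related tXET-B1 (NM_001247284.2), which is not on the list, had 198 and 214 TPM in polysomes, against 7.55 and 10.2 TPM in monosomes. Its log2 change was 3.94 ± 0.27 (SE; limma, adjusted p = 4.38e-05), beside 2.24 in Stress total RNA.

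Cel1 (NM_001247933.2), an endoglucanase, had 16.6 and 15.7 TPM in polysomes, against 0.548 and 0.841 TPM in monosomes. Its log2 change was 3.07 ± 0.30 (SE; limma, adjusted p = 0.00028), while its change in Stress total RNA was -0.19. Further members of the xyloglucan family were Up, from 1.59 for XTH16 to 2.51 for XET2, while XTH3 (1.91), XTH9 (0.38) and XET4 (0.12) were not called. The expansins EXP2, exp11, EXPA4 and EXP12, which loosen the wall without cutting it, were Up by 1.13 to 1.98. The expansins EXP5 (1.13), EXPA10 (0.68), exp18 (0.36), exp9 (-0.01) and EXPA3 (-0.05) were not called. The galactosidases TBG6 and TBG5, which trim side chains of pectin, were Up by 1.55 and 1.29, while TBG1 (0.08) and TBG3 (-0.73) were not called. Of the 16 Up transcripts, 2 were also higher in Stress total RNA and 7 changed there by less than 0.5. The count was less stable than for the transporters, with 5 to 13 Up when 1 library was left out.

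Secreted defence proteins were also weighted to polysomes. Of 14 pathogenesis-related transcripts, 7 were Up and 0 Down, the median was 0.92, and at an unadjusted p under 0.05 in limma 10 were higher and 0 lower. CEVI-1 (NM_001247203.2), a peroxidase, had 171 and 197 TPM in polysomes, against 32.5 and 31.3 TPM in monosomes (log2 change 2.01 ± 0.19, SE; limma, adjusted p = 0.000204). P69A (NM_001247328.2), a subtilisin-like protease, had 14.4 and 14.4 TPM in polysomes and 2.12 and 2.26 TPM in monosomes (log2 change 1.90 ± 0.23, SE; limma, adjusted p = 0.000626). The abundant PR1b1 had 7561 and 6858 TPM in polysomes, against 2777 and 2163 TPM in monosomes, and was Up by 1.06. In Stress total RNA none of the 7 passed the threshold for Up, and 4 changed by less than 0.5, while P69B, PR-5 and CEVI-1 had changes of 0.84, 0.73 and 0.65. The chitinases CHI9 and CHI3 had log2 changes of 0.80 and 0.71, short of the threshold of 1, and CHI1 had -0.06. Leaving out 1 library gave 4 to 7 Up.

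The auxin list was mixed, with calls to be read beside the 7.03% Up and 3.67% Down over all transcripts. Of 37 transcripts, 6 were Up and 1 was Down, with a median of 0.35, and 3 to 5 were Up when 1 of the 4 libraries was left out. Of the 6 Up, 1 was also higher in Stress total RNA and 3 changed there by less than 0.5. IAA4 (NM_001279327.1), a short-lived repressor of auxin response, had 146 and 184 TPM in polysomes, against 12.1 and 19.6 TPM in monosomes, a log2 change of 2.86 ± 0.43 (SE; limma, adjusted p = 0.00187). IAA3, of the same family, had 296 and 344 TPM in polysomes and 32.4 and 54.2 TPM in monosomes and was Up by 2.41. In Stress total RNA IAA4 changed by 0.45 and IAA3 by 1.39. The auxin carriers LAX1 and PIN4 were Up by 1.63 and 1.56. ARF24, an auxin response factor, had 2.70 and 3.61 TPM in polysomes, against 6.37 and 7.38 TPM in monosomes. It was Down at -1.35, a call that was lost when any of the 4 libraries was left out (-1.22 to -1.48) and with no further scaling.

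**Figure D3:**
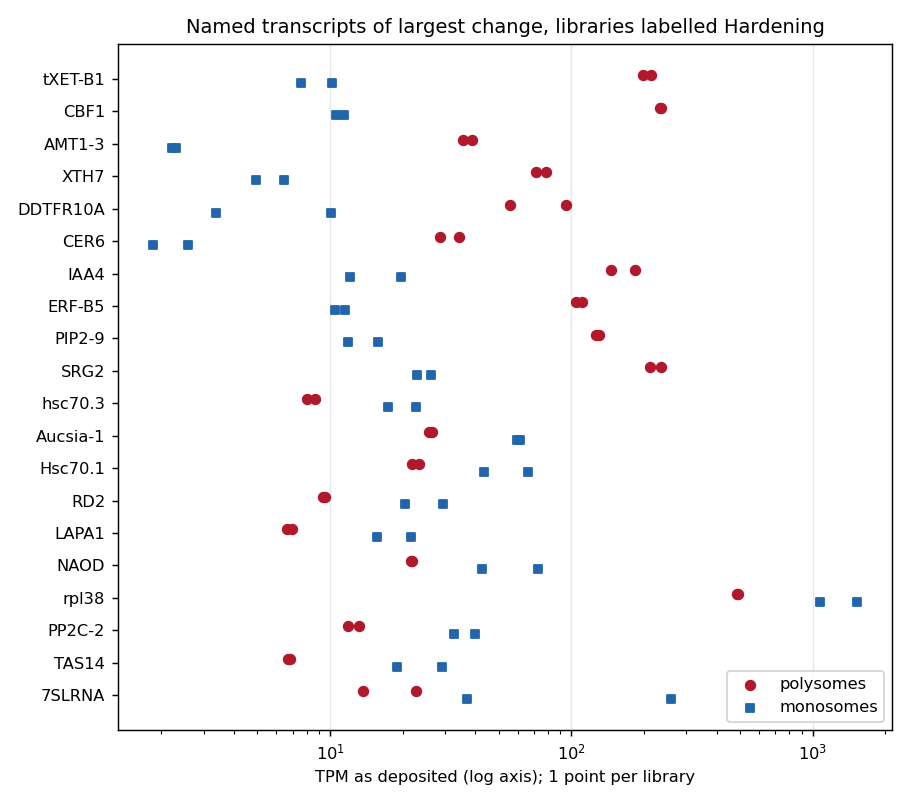
TPM as deposited, on a log axis, of the 10 Up and the 10 Down transcripts of largest change that carry a gene symbol, with 1 point per library, circles for polysomes and squares for monosomes. The fractions do not overlap for any of the 20, as the rule for naming them required. The Up transcripts are separated more widely than most of the Down, and 7SLRNA has monosome values of 37.1 and 260 TPM.

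The list of ethylene response factors also took in AP2, CRF and DREB genes and CBF1, which is counted again with the cold and dehydration genes. Of its 44 transcripts tested, 6 were Up and 3 Down. Over all transcripts 7.03% were Up and 3.67% Down, and the median of the list was 0.10. CBF1 (NM_001247194.2), the regulator of the cold response, had 236 and 232 TPM in polysomes, against 11.4 and 10.6 TPM in monosomes, a log2 change of 3.83 ± 0.30 (SE; limma, adjusted p = 7.92e-05). In total RNA it had 195 and 186 TPM in Stress leaves, against 12.2 and 8.17 TPM in Control leaves. In TPM as deposited, the polysome level thus lay near that of stressed leaves and the monosome level near that of untreated leaves. The Control-labelled libraries were split likewise, with 88.0 and 67.5 TPM in polysomes, against 4.32 and 3.91 TPM in monosomes (log2 change 4.02). ERF-B5 (XM_004235137.4) had 104 and 110 TPM in polysomes, against 11.6 and 10.5 TPM in monosomes (log2 change 2.71 ± 0.27, SE; limma, adjusted p = 0.000303). ERF-D4 (XM_004248687.4) had 12.7 and 14.4 TPM in polysomes and 0.959 and 1.68 TPM in monosomes, and was Up by 2.34. Under the label Control, ERF-B5 and ERF-D4 had log2 changes of 3.25 and 2.93.

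Of the 6 Up factors, 5 were also higher in Stress total RNA, by 2.63 for ERF5 to 4.02 for CBF1. PTI4, which binds promoters of pathogenesis-related genes, was the exception, Up by 1.64 with a change of -0.42 in total RNA. The part of the acute response in the other 5 was not tested and, as given above, cannot be told apart from the fraction. In the Down direction, ERF2 had 38.4 and 38.9 TPM in polysomes, against 96.5 and 70.3 TPM in monosomes (log2 change -1.56), and ERF-A1 had 1.16 and 0.816 TPM against 4.35 and 2.48 TPM (log2 change -1.47). The call of ERF-A1 was lost without polysome library 1 (-1.60) or 2 (-1.34).

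Transcripts of the ribosome itself lay in the other direction. All 8 ribosomal protein transcripts with a symbol had log2 changes below 0 after rescaling (6 of the 8 without it), with a median of -0.66, and 3 were Down and 0 Up. At an unadjusted p under 0.05 in limma, 5 were lower and 0 higher. The mRNA of rpl38 (NM_001247010.2), a protein of the large subunit, had 491 and 486 TPM in polysomes, against 1531 and 1076 TPM in monosomes, a log2 change of -1.88 ± 0.21 (SE; limma, adjusted p = 0.000506). RPS25 was Down at -1.07, while RPL8 at -0.45 and L23 at -0.45 were not called.

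These directions were relative to the rescaled median. With TPM as deposited and no further scaling, 2 of the 8 were above 0, the median was -0.17 and 1 was Down. In total RNA the median of the 8 changed by -0.12 in Stress, and all 3 Down transcripts changed there by less than 0.5. Translation factors followed with 9 of 9 below 0 and a median of -0.40, but with no further scaling 7 of the 9 were above 0. Only eIF-5A1, an initiation and elongation factor, was Down, by -1.02, and it was not called without further scaling or without polysome library 1, polysome library 2 or monosome library 1.

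In the lists of ubiquitin and proteasome genes, of tubulins, actins and histones, and of antioxidant enzymes, the transcripts called were lower in polysomes. The ubiquitin precursor ubi3 had 780 and 825 TPM in polysomes, against 1785 and 1183 TPM in monosomes (log2 change -1.35). SKP1, a subunit of ubiquitin ligases, had 303 and 310 TPM in polysomes and 668 and 423 TPM in monosomes (log2 change -1.29). The histone H2B-1 had 119 and 120 TPM against 284 and 190 TPM (log2 change -1.45), and the superoxide dismutase SODCC.1 had 71.1 and 76.2 TPM against 148 and 142 TPM (log2 change -1.45). All 4 were Down, with changes of -0.40 to -0.06 in Stress total RNA, but none of the 4 was called with no further scaling, where their log2 changes were -0.96 to -0.79. SKP1 was also not called without monosome library 1 (-0.92). They were 2 of 12, 1 of 8 and 1 of 16 transcripts of these lists, and no member was Up. The list medians were 0.24, -0.18 and -0.14, and 8 of the 12 ubiquitin and proteasome transcripts lay above 0. At an unadjusted p under 0.05 in limma, 3 were lower in each list and 1, 0 and 2 were higher. Over all 17636 transcripts, 3.67% were Down and 5034 had an unadjusted p under 0.05. The counts at an unadjusted p lie near the share of all transcripts. The Down counts lie above that share but rest on only 1 or 2 transcripts per list. Without monosome library 2, 3 of the 8 tubulins, actins and histones were Down.

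Of 8 transcripts of cold and dehydration genes, 1 was Up, the transcription factor CBF1, and 3 were Down, all of them protective proteins. The median was -0.75, with 3 transcripts above 0 and 5 below. LEA14, with 287 and 291 TPM in polysomes and 194 and 170 TPM in monosomes, had a log2 change of 0.18. COR413IM1 had 0.50, and neither was called. TAS14 (NM_001247109.1), a dehydrin, had 6.84 and 6.67 TPM in polysomes, against 18.9 and 29.0 TPM in monosomes, a log2 change of -2.12 ± 0.40 (SE; limma, adjusted p = 0.00538). The log2 change of LE25 was -2.20 ± 0.35 (SE; limma, adjusted p = 0.0025), at the low levels given above. DHN, another dehydrin, had 44.5 and 44.9 TPM in polysomes and 115 and 73.0 TPM in monosomes and was Down at -1.51. In Stress total RNA, TAS14 changed by -1.42, LE25 by -0.59 and DHN by -0.24.

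Constitutive chaperones of the Hsc70 family were Down, while 1 small heat shock protein, Hsp20.0, was Up. Hsc70.1 (NM_001247562.2) had 21.9 and 23.3 TPM in polysomes, against 66.2 and 43.5 TPM in monosomes (log2 change -1.69 ± 0.22, SE; limma, adjusted p = 0.00083). In Stress total RNA it changed the other way, by 1.16. Hsc70.2 and hsc70.3 were Down at -1.23 and -1.62, the call of Hsc70.2 being lost without polysome library 1 (-1.28), polysome library 2 (-1.19) or monosome library 1 (-0.92). Of these, hsc70.3 is not on the list of heat shock genes. Hsp20.0, a small heat shock protein, had 64.3 and 63.8 TPM in polysomes and 14.9 and 13.0 TPM in monosomes and was Up by 1.65, beside 1.18 in Stress total RNA. The small heat shock proteins HSP17.8 (-0.77), HSP17-6 (-0.59), HSP21 (-0.46) and HSP17.4 (-0.39) were below 0 and not called. The chaperone BiP/grp78 had 0.53 and was not called either. Of the 14 transcripts on the list, 1 was Up and 2 were Down, and 3 lay above 0 and 11 below, with a median of -0.42. Without monosome library 2, 5 were Down.

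Wound and jasmonate genes were Down in 4 of 13 cases and Up in 0 (3.67% and 7.03% over all transcripts), with a median of -0.50. At an unadjusted p under 0.05 in limma, 6 were lower and 3 higher. LAPA1 (NM_001246933.2), a leucine aminopeptidase induced by wounding, had 6.64 and 6.95 TPM in polysomes, against 21.7 and 15.7 TPM in monosomes (log2 change -1.78 ± 0.28, SE; limma, adjusted p = 0.00232). It changed by -3.69 in Stress total RNA. JAZ2, a repressor of jasmonate response, was Down at -1.44, a call kept without monosome library 1 (-1.79) and lost without any of the other 3 (-1.08 to -1.50), and the enzymes of jasmonate synthesis loxD and AOS were Down at -1.15 and -1.13. With no further scaling this list had 3 Up and 1 Down, with a median of -0.11. The NAC transcription factors that act in jasmonate and abscisic acid responses, JA2 and JA2L, were Down at -1.57 and -1.17 and were also lower in Stress total RNA. The call of JA2L was lost without polysome library 1 (-1.14).

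Photosynthesis transcripts, among the most abundant of the leaf, were mostly not called. Of 16 chlorophyll a/b-binding transcripts, 1 was Up and 0 were Down, beside 7.03% and 3.67% of all transcripts tested. Their median was 0.05, and at an unadjusted p under 0.05 in limma 4 were higher and 2 lower. The one Up was ELIP (NM_001320256.1), an early light-inducible protein that protects against excess light, with 86.9 and 85.5 TPM in polysomes, against 14.8 and 17.6 TPM in monosomes (log2 change 1.87 ± 0.31, SE; limma, adjusted p = 0.00315). Its change in Stress total RNA was -0.17. CAB12 changed by 0.16 ± 0.30 (SE) and Cab-1D by -0.34 ± 0.32 (SE), neither of which was called. RBCS4, the small subunit of Rubisco, was the most abundant transcript by the mean over the 4 libraries, with 45801 and 44795 TPM in polysomes, against 73665 and 52217 TPM in monosomes, and its log2 change of -0.95 fell short of the threshold, though it was Down at -1.23 without monosome library 2. None of the 7 photosystem subunits was called, with 1 at an unadjusted p under 0.05 in limma. The lists of WRKY, MYB, and bHLH and bZIP factors and of microRNA precursors also held no call among 11, 4, 5 and 19 transcripts. In these lists 4, 1, 1 and 1 had an unadjusted p under 0.05, beside 5034 of 17636 over all transcripts.

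**Figure D4:**
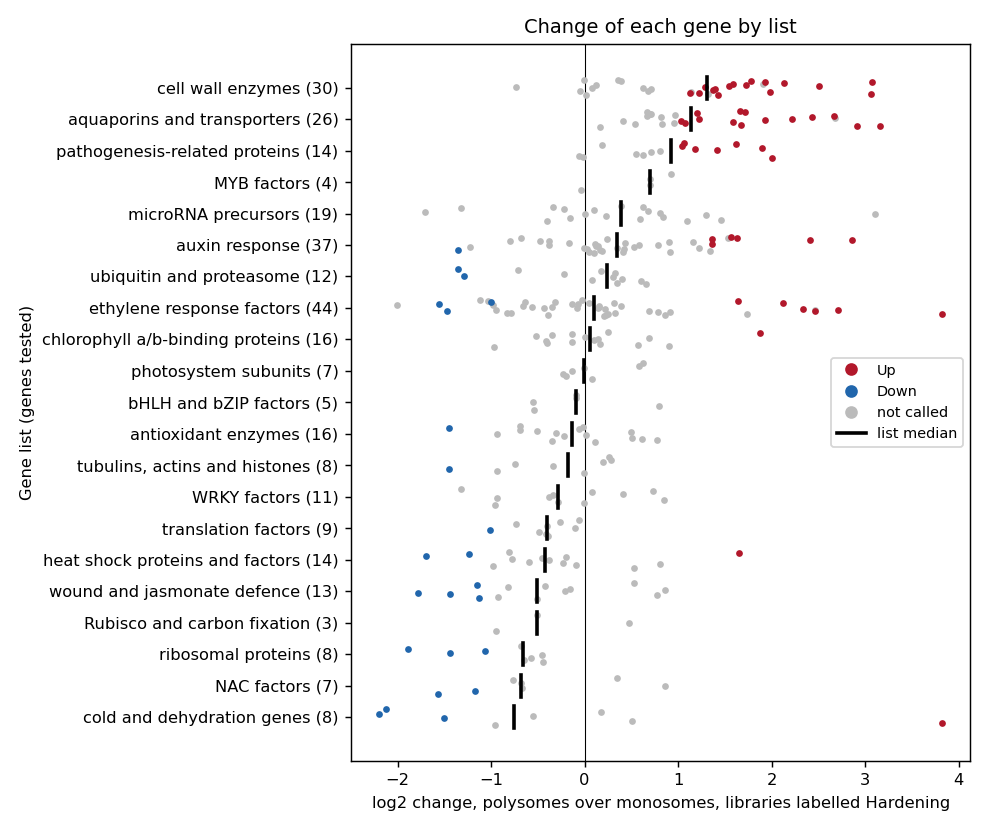
The log2 change of polysomes over monosomes in the Hardening-labelled libraries for each transcript of 21 gene lists (rows, with the number tested), with colour for the call and a black bar at the list median. Cell wall enzymes (median 1.30) and aquaporins and transporters (1.14) lie at the top, and cold and dehydration genes (-0.75), NAC factors (-0.68) and ribosomal proteins (-0.66) at the bottom. With TPM that were not scaled further, the medians of translation factors, photosystem subunits, WRKY factors, bHLH and bZIP factors, antioxidant enzymes, and tubulins, actins and histones are above 0.

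Outside the lists, several transcripts of known role had large changes. CER6 (NM_001317822.1), which elongates fatty acids for the leaf wax, had 28.5 and 34.1 TPM in polysomes, against 1.85 and 2.59 TPM in monosomes (log2 change 2.95 ± 0.22, SE; limma, adjusted p = 7.92e-05). DDTFR10A had 56.0 and 95.1 TPM in polysomes and 3.36 and 10.1 TPM in monosomes and was Up by 2.97. SRG2 had 212 and 236 TPM in polysomes and 22.9 and 26.1 TPM in monosomes and was Up by 2.66. In Stress total RNA SRG2 changed by 3.00, DDTFR10A by 2.54 and CER6 by 0.60, so for SRG2 and DDTFR10A the fraction and the acute response cannot be told apart. In the Down direction, the protein phosphatase PP2C-2 had 13.2 and 11.8 TPM in polysomes, against 40.1 and 32.6 TPM in monosomes (log2 change -1.94 ± 0.17, SE; limma, adjusted p = 0.00015). RD2 was Down at -1.76 and Aucsia-1, which encodes a small peptide, at -1.67. NAOD, an enzyme of ornithine metabolism, was Down at -1.80, a call that was lost when any of the 4 libraries was left out (-1.46 to -2.15), and it changed by -2.51 in Stress total RNA.

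Coding and non-coding transcripts differed in the share Up more than in the share Down. Of 16501 coding transcripts, 1222 (7.41%) were Up and 603 (3.65%) Down, whereas of 1135 non-coding transcripts 17 (1.5%) were Up and 45 (3.96%) Down. The median log2 changes were 0.06 for coding and -0.14 for non-coding transcripts. The 82 small nuclear RNAs had a median of -0.70 with 1 Up and 3 Down, the latter 3.66% beside 3.67% of all transcripts. The 389 long non-coding RNAs had 5 Up and 21 Down. Non-coding transcripts took 9.70% and 23.4% of TPM in monosomes, against 4.29% and 3.21% in polysomes. How far the class shares rest on monosome library 2 was not tested. The RNA of the signal recognition particle, 7SLRNA, had 13.6 and 22.6 TPM in polysomes, against 37.1 and 260 TPM in monosomes (log2 change -2.90 ± 0.89, SE; limma, adjusted p = 0.0494). This call held in 3 of 12 alternatives, and without monosome library 2 the change was -1.55.

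Ribosomal RNA that escaped poly(A) selection was uneven between the monosome libraries. It took 0.317% and 0.359% of TPM in polysomes, against 1.18% and 8.58% in monosomes, the high value being that of monosome library 2. The transcript LOC112941208, a ribosomal RNA, had 3089 and 3493 TPM in polysomes and 11396 and 78704 TPM in monosomes. LOC112940417, another ribosomal RNA, had 57.6 and 36.0 TPM in polysomes and 146 and 5722 TPM in monosomes, and its log2 change of -4.79 was -2.19 and not called without that library. Without monosome library 2 the calls over all transcripts were 1010 Up and 727 Down, of which 821 and 502 were among those of all 4 libraries. The part of this ribosomal RNA in the other changes was not tested.

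The same contrast under the other labels rests on other libraries and was compared by interaction terms. It differed from Hardening in 1099 transcripts for Control (6.23%), in 3233 for Stress (18.3%) and in 827 for Combo (4.69%). Across 17636 transcripts the change under the label Hardening correlated at 0.37 with that under Control, at -0.27 with that under Stress and at 0.14 with that under Combo. Of the 1239 Up transcripts, 593 were also Up under Control (47.9% of the Hardening list and 31.5% of the Control list), whereas 25 (2.02%) were Up and 254 were Down under Stress. Over all tested transcripts, 10.7% were Up and 5.73% Down under Control, and 2.95% were Up and 3.79% Down under Stress. Of the 648 Down transcripts, 195 were Down under Control (30.1% and 19.3% of the lists), and 9 were Down and 94 Up under Stress.

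The lists differed between labels as well. Aquaporins and transporters had 14 Up of 26 under Hardening, with a median of 1.14, against 1 Up and 5 Down under Stress with a median of -0.73, and 17 were higher under Hardening than under Stress by the interaction term. Under Control the list had 17 Up and a median of 1.49, and only 2 transcripts were higher and 1 lower under Hardening. Cell wall enzymes had 16 Up of 30 under Hardening, against 7 Down under Stress and 6 Up under Control. By the interaction term, 18 were higher under Hardening than under Stress, but only 2 were higher than under Control and 0 lower. Pathogenesis-related transcripts had 7 Up of 14 under Hardening, against 8 Down under Stress, and 11 were higher under Hardening by the interaction term. Under Control this list had 9 Up and a median of 1.22, against 0.92 under Hardening. By the interaction term with Control, 0 transcripts were higher and 2 lower under Hardening. Of the 8 ribosomal protein transcripts, 3 were lower under Hardening than under Stress and 3 than under Control, where the medians were 0.00 and 0.04.

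**Figure D5:**
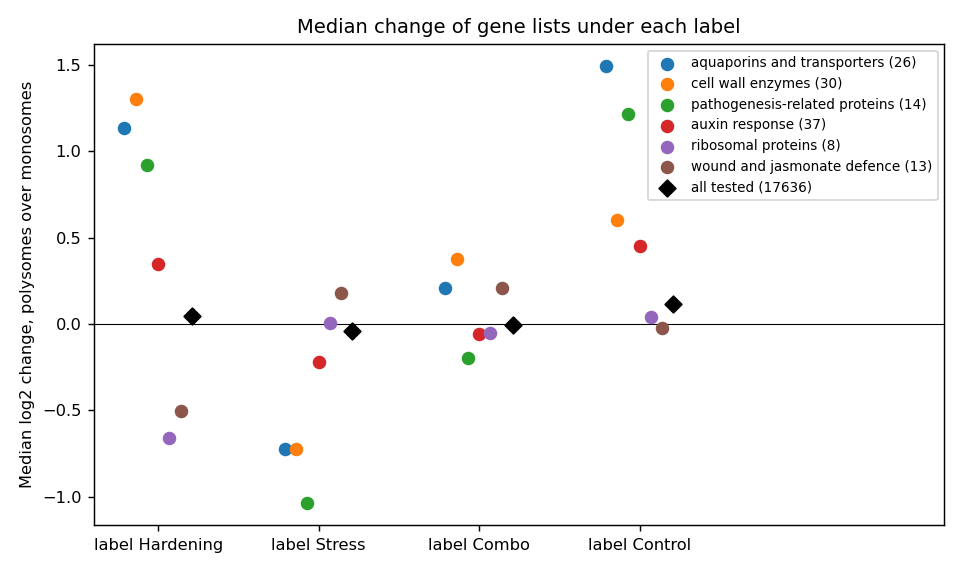
Median log2 change of polysomes over monosomes (vertical axis) for 6 gene lists and for all tested transcripts under each of the 4 labels, with the number of transcripts in the legend. Aquaporins and transporters lie at 1.14 for Hardening, -0.73 for Stress, 0.21 for Combo and 1.49 for Control, while ribosomal proteins lie at -0.66 for Hardening, 0.00 for Stress, -0.06 for Combo and 0.04 for Control.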

How the data were processed

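Leaf mRNA of polysome, monosome and total fractions was sequenced by the authors as stranded poly(A) libraries. Per the labels and the paper's methods, reads were made with bcl2fastq 2.20, filtered, and quantified with kallisto on the tomato transcriptome, and the deposited values are TPM for 45845 transcripts that sum to 1e+06 in each library. TPM keep no depth, so the depth is unknown and no counting interval is given. No deposited column was left unmapped (0).

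Libraries were scaled by an unweighted trimmed mean of log ratios (30% removed at each end by log ratio and 5% by level), and values were transformed to log2(scaled TPM + 1), which understates changes of low transcripts. Those whose scaled TPM averaged 1 or more were tested in limma 3.58.1 (R 4.3.3) over 16 polysome and monosome libraries in 8 groups, with contrasts for the fractions and their interactions and Benjamini-Hochberg adjustment over 17636 transcripts. A separate limma fit of the total RNA libraries gave the cold indices. The test was tried on simulated data first, with independent noise for each transcript, so effects shared within a library were not covered. Symbols came from a RefSeq table of assembly SLM_r2.1 (34881 identifiers matched), whose build differs, so no coordinates are given.

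Named transcripts were the 10 Up and 10 Down of largest change with a symbol, a mean of at least 10 TPM and no overlap, the 3 per direction with no need for a symbol, up to 2 called per list and direction (the most abundant where none was called), 3 per direction and interaction, the label markers and the 5 most abundant. Other list members named, and PSY2, were chosen after their values were seen. The members and gene lists were chosen with earlier results of these data known. Alternatives changed the scaling, pseudocount, filter, libraries, block and gene summing, and gene lists were given no test of their own. The values of 1 ribosomal protein transcript are not reported here.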

Additional observations from a re-analysis of the deposited data

Results flagged for a closer look

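The change between polysomes and monosomes differed between the label Hardening and another label, by the interaction term of limma, for 18 named results. Against Control, CIF1, an inhibitor of cell wall invertase, had the higher change under Hardening, by 2.44 (limma, adjusted p = 0.0443), with 44.8 and 58.5 TPM in Hardening-labelled polysomes and 3.11 and 9.66 TPM in monosomes. The squalene synthase SQS1 was higher by 1.99 and the non-coding RNA TPSI1 by 1.86. The microRNA precursor MIR6024 was lower under Hardening, at -7.86, as were the GTPase ypt2 at -4.84 and the glucanase GluB at -3.91. For these 3 the monosome libraries labelled Control were listed at or near 0, so the size of the difference depends on the pseudocount.

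Against Stress, the differences were 5.04 for AMT1-3, 4.95 for PIP2-9 and 4.57 for tXET-B1, and -4.90 for 7SLRNA, -3.97 for the small nucleolar RNA U3 and -3.88 for TAS14. In Hardening-labelled monosomes U3 had 8.23 and 40.6 TPM and 7SLRNA 37.1 and 260 TPM. Under Hardening, U3 changed by -1.78 and was not called. Without monosome library 2, the changes under Hardening were -0.72 for U3 and -1.55 for 7SLRNA. AMT1-3 had log2 changes of 3.16 under Hardening and -1.88 under Stress. TAS14 had -2.12 under Hardening and 1.77 under Stress. Against Combo, the differences were 3.30 for AMT1-3, 3.01 for tXET-B1 and 2.91 for IAA4, and -2.95 for TAS14, -2.66 for LE25 and -2.50 for JAZ2. TAS14 had 6.84 and 6.67 TPM in Hardening-labelled polysomes, against 211 and 178 TPM in Combo polysomes.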

How the results depend on the processing

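Precision rests on 2 libraries per group. The 1239 Up transcripts became 2805 with no further scaling, 811 with a mean of at least 5 TPM, 494 among transcripts not called in total RNA (an alternative chosen after seeing the data), and 476 to 1010 with 1 of the 4 libraries left out. The 648 Down transcripts became 222 with no further scaling, 278 among those not called in total RNA, and 306 to 727 with a library left out. Counts were 745 Up and 356 Down without monosome library 1, 476 and 316 without polysome library 1, and 477 and 306 without polysome library 2, where the lone library is assumed to vary like the other groups. The interaction counts were 644 (Control), 6058 (Stress) and 1557 (Combo) with no further scaling. With only the conditions compared they were 384 (Control) and 1917 (Combo). With a library left out they spanned 144 to 1059 for Control, 1933 to 2766 for Stress and 191 to 785 for Combo. One isoform of LOC101257258 had -0.66 when transcripts were summed over genes, against 5.04 alone, since the sum includes the isoform that moved the other way. Of the named transcripts, 8 to 15 lost a call when a library was left out and 12 with no further scaling. The call of 7SLRNA held in 3 of 12 alternatives. The cause of the other differences was not tested. With the replicate block, counts were 1205 Up and 627 Down and no named call changed. Whether the replicate numbers pair the samples is not established. Deviations from group means correlated between -0.19 and 0.12 over 28 pairs of groups, with a median of -0.006, and 2 pairs were over 0.1. For polysomes with monosomes of the same label they were 0.115 (Stress), 0.096 (Hardening), 0.044 (Combo) and 0.032 (Control). Correlations this weak cannot decide the question. Protein-length bins were not run for want of protein sequences.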

Other observations

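Isoforms of a gene could move in opposite directions. Of 1428 genes with 2 or more transcripts tested, 189 had a called transcript and 13 had 1 transcript Up and another Down. PSY2, a phytoene synthase of carotenoid synthesis, had 61.6 and 60.4 TPM of NM_001247742.2 in polysomes, against 4.83 and 12.9 TPM in monosomes (log2 change 2.33). Its isoform XM_019211975.2 had 1.30 and 1.70 TPM in polysomes and 26.6 and 12.7 TPM in monosomes (log2 change -3.39). The sum over both had a log2 change of 0.60 (limma, adjusted p = 0.0576).

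For LOC101257258, the isoform XM_010321717.3 had 32.5 and 38.9 TPM in polysomes and 0.0152 and 0.0199 TPM in monosomes, while XM_010321718.3 was near 0 in polysomes and had 46.1 and 37.5 TPM in monosomes. Reads of isoforms that share most of their sequence are divided by the estimate of kallisto, so such pairs are uncertain. Of transcripts with no symbol, XM_026027701.1 had 53.8 and 48.0 TPM in polysomes and 0.00231 and 1.25 TPM in monosomes, LOC101267969 had 28.6 and 28.1 TPM against 0.0205 and 0.0265 TPM, and LOC104644826 had 5.96 and 2.45 TPM against 124 and 55.7 TPM. Summed over the transcripts of the gene, the log2 change was 0.18 for LOC101267969, against 4.71 alone, and -0.11 for LOC104644826, against -4.56 alone, and neither sum was called.

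Of 3 very abundant transcripts with no symbol, XR_003244462.1, XR_003244938.1 and XM_010316700.1, all were Down, at -2.80, -2.69 and -2.64. These calls held in 9, 7 and 8 of 12 alternatives, and the polysome libraries differed, with 14711 and 7396 TPM of XM_010316700.1, against 36941 and 58137 TPM in monosomes.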
